A study of Mus musculus with 17 samples.

Results

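Sorted pancreatic β cells that lacked Pcbp2 were compared with control β cells after their islets had been cultured in high glucose. The comparison holds 9 of the 17 bulk RNA-seq samples of the series, namely the 5 labelled PCBP2KO and the 4 labelled WT that were kept at 16.7 mM glucose, and it is described across all genes. The remaining samples, 3 control and 5 knockout, were kept at 2.8 mM glucose and are used for the spread between samples and for a side-by-side view. Islets of male mice were cultured for 3 days at the stated glucose concentration, dispersed, and sorted for living cells with the red tdTomato reporter.

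Knockout islets (Pcbp2 βKO) came from RIPCre+;Pcbp2Fl/Fl;Tdtomato mice, in which a rat insulin promoter drives Cre recombinase in β cells, both Pcbp2 alleles are floxed, and Cre switches on tdTomato from the Rosa26 locus. The labels list the control islets only as Tdtomato; the study's text describes these mice as a cross of RIP-Cre with the reporter, so that by that account both groups carried Cre and the reporter and only the knockout carried floxed Pcbp2. The sort selected cells in which the reporter had recombined, which is not a direct readout of recombination at Pcbp2. For these libraries the sources used here do not give the age of the mice, the number of mice behind each sample, or whether control and knockout mice were littermates. Any other genetic difference between the 2 mouse lines and the Pcbp2 genotype cannot be told apart, and p-values measure the spread between samples, which may be technical where samples share animals.

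PCBP2 is a poly(C)-binding protein, a member of a family of KH-domain proteins that attach to cytosine-rich stretches of RNA and act on splicing, stability and translation of mRNAs. Poly(C)-binding proteins also serve as chaperones that deliver iron within the cytosol. β cells make and secrete insulin, and high glucose raises both insulin production and, over days, the expression of many other genes.

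The 9 libraries held 65070242 to 81769111 estimated counts each. The β cell label held: Ins2 took 18.2% to 25.7% of the counts in control and 20.7% to 24.7% in knockout libraries. Summed levels of 15 acinar markers were 1.92 to 28.3 CPM (counts after TMM scaling of every library to the same total) in control and 2.05 to 11.5 CPM in knockout, with 11 of them under 0.1 CPM in all 9 libraries. Summed endothelial markers reached 8.85 CPM at most, and the α cell hormone Gcg was at 260.2 to 1448 CPM in control and 172 to 1301 CPM in knockout. The α cell markers summed to 723 to 1761 CPM in control and 1389 to 2514 CPM in knockout; all 8 tested had a positive log2 fold change (median 0.67) and none was called. Sums of PP cell markers were 382 to 1017 CPM in control and 487 to 1473 CPM in knockout. The part of these cells in the results below was not tested. In bulk RNA, fewer cells of a type and less RNA per cell cannot be told apart. On the first principal component over all 17 samples, which held 30% of the variance, control replicate 4 (9.9) and knockout replicates 4 and 5 (21.4 and 33.2) stood apart from the other libraries at 16.7 mM (90.9 to 99.1). Values without these libraries are given for some results below.

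Pcbp2 itself was at 35.0, 45.4, 44.4 and 36.7 CPM in the 4 control libraries and at 10, 5.81, 6.39, 8.48 and 7.61 CPM in the 5 knockout libraries. Every knockout library lay below every control library, and the transcript was lower by 2.40 ± 0.16 (SE) on the log2 scale, a fold change of 5.27 (adjusted p = 7.55e-08, edgeR quasi-likelihood test with Benjamini-Hochberg adjustment, which gives all adjusted p-values below). Among 61 tested hnRNP and poly(C)-binding protein genes, Pcbp2 alone was called. Hnrnpk, a relative of Pcbp2 that also binds cytosine-rich RNA, had a mean of 728 ± 89.6 CPM (SD, n = 4) in control and 733 ± 38.2 CPM (SD, n = 5) in knockout cells.

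Of 22784 genes tested, 389 were called (1.71%), a call being a fold change above 1.5 with an adjusted p below 0.05. Lower in the knockout were 323 genes (1.42%) and higher were 66 (0.29%). The number of higher genes was the less stable: with 1 library left out it was 27 without control replicate 3 and 199 without control replicate 4, while the lower genes numbered 186 and 453, and without knockout replicate 5 higher genes made up 31.3% of the calls. With DESeq2, 221 genes were higher and 505 lower. The median log2 fold change over all tested genes was 0.01. The decreases were also the larger changes: their median log2 fold change was -2.33, 178 fell by more than 2 log2 units and 83 by more than 4, while the median of the increases was 1.44 and 18 of them exceeded 2. Knockout and control values did not overlap in 270 of the 323 lower and 59 of the 66 higher genes, against 1022 of all tested genes (4.49%). Protein-coding genes made up 80.2% of the lower and 77.3% of the higher genes, beside 69.0% of all tested genes.

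**Figure D1:**
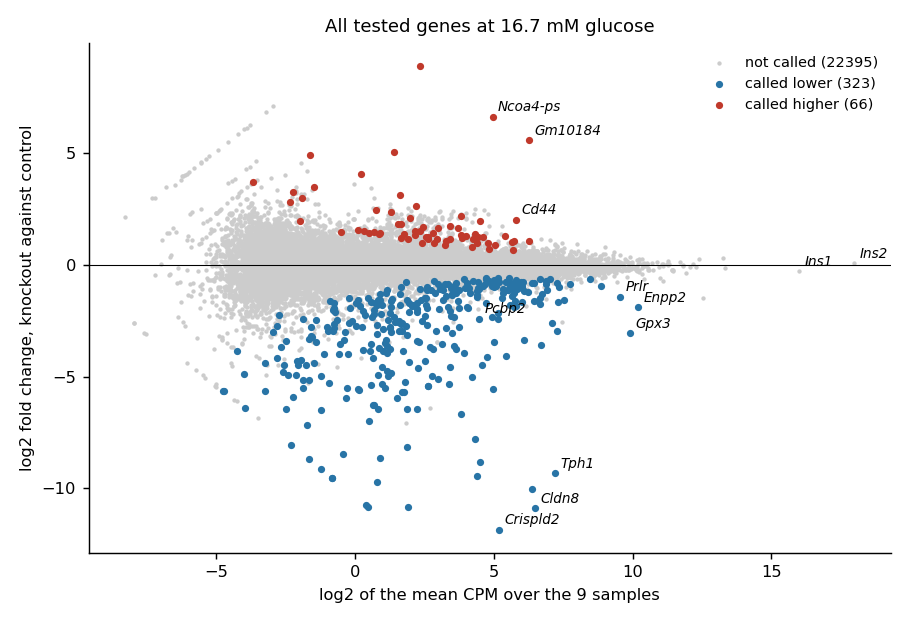
Log2 fold change of knockout against control at 16.7 mM glucose (vertical axis) against the log2 of the mean CPM over the 9 samples (horizontal axis), 1 point per tested gene; genes at 0 in all 9 samples are not drawn. The 323 genes called lower reach much further from 0 than the 66 called higher, and Ins1 and Ins2, at the far right, lie near 0.

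The decreases of largest size took genes from a clear level in control β cells to almost nothing in the knockout. Crispld2, a secreted protein with a lipopolysaccharide-binding domain, was at 61.1, 109, 139 and 21.4 CPM in the control libraries and between 0.0128 and 0.0321 CPM in the 5 knockout libraries. Its log2 fold change was -11.85 ± 0.76 (adjusted p = 5e-08). Cldn8, a claudin of tight junctions, was at 82.5, 231, 418 and 69.5 CPM in control and at 0.0342 to 0.225 CPM in knockout, a log2 fold change of -10.89 ± 0.82 (adjusted p = 3.53e-07). Sftpd, surfactant protein D, a collectin of innate defence, was at 140.5, 224, 341 and 37.6 CPM in control and never above 0.273 CPM in knockout. Control replicate 4 was the lowest control library for these genes, as it was for 191 of the 323 lower genes, and still lay far above all knockout libraries.

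Tph1, the enzyme that starts serotonin synthesis in peripheral tissue, showed the highest control level in this group, with 232, 406, 661 and 34.5 CPM. In the knockout it was at 0.547, 0.883, 0.477, 0.0134 and 0.707 CPM (log2 fold change -9.32 ± 0.80, adjusted p = 1.89e-06). Lrrc55, an auxiliary subunit of BK potassium channels, was at 31.9, 28.7, 109 and 32.6 CPM in control and at 0 to 0.277 CPM in knockout. Csf2rb, the common β subunit of the receptors for IL-3, IL-5 and GM-CSF, was at 34, 37.6, 102 and 7.26 CPM against 0.0855 to 0.373 CPM. Adarb2, an RNA-binding relative of the adenosine deaminases that edit RNA, was at 7.52, 10.5, 17.7 and 6.26 CPM against 0.0161 to 0.200 CPM. These groups did not overlap, which the rule for naming the genes of largest change required.

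Several of the genes left no count or a single count in all 5 knockout libraries together, so their fitted fold changes depend on the prior count. Wdr86 and Syndig1, a protein of synapse differentiation, had 700 and 692 counts summed over the control libraries and 0 over the knockout libraries. Against a floor of 3 counts over the knockout group they were at least 339-fold and 335-fold lower. Syt10, a synaptotagmin, had 905 counts in control and 1 in knockout, a ratio of 1315 with a 95% Poisson interval of 236 to 51931 that covers counting error only. Gm13716 had 1979 counts in control and 1 in knockout. The remaining genes of this group were Prok1, the secreted ligand prokineticin 1 (8.10 against 0.0287 CPM on average), Cym, which encodes chymosin (3.14 against 0.0222 CPM), and the processed copies Rps13-ps1 and Gm10163, which are treated with the other copies below.

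**Figure D2:**
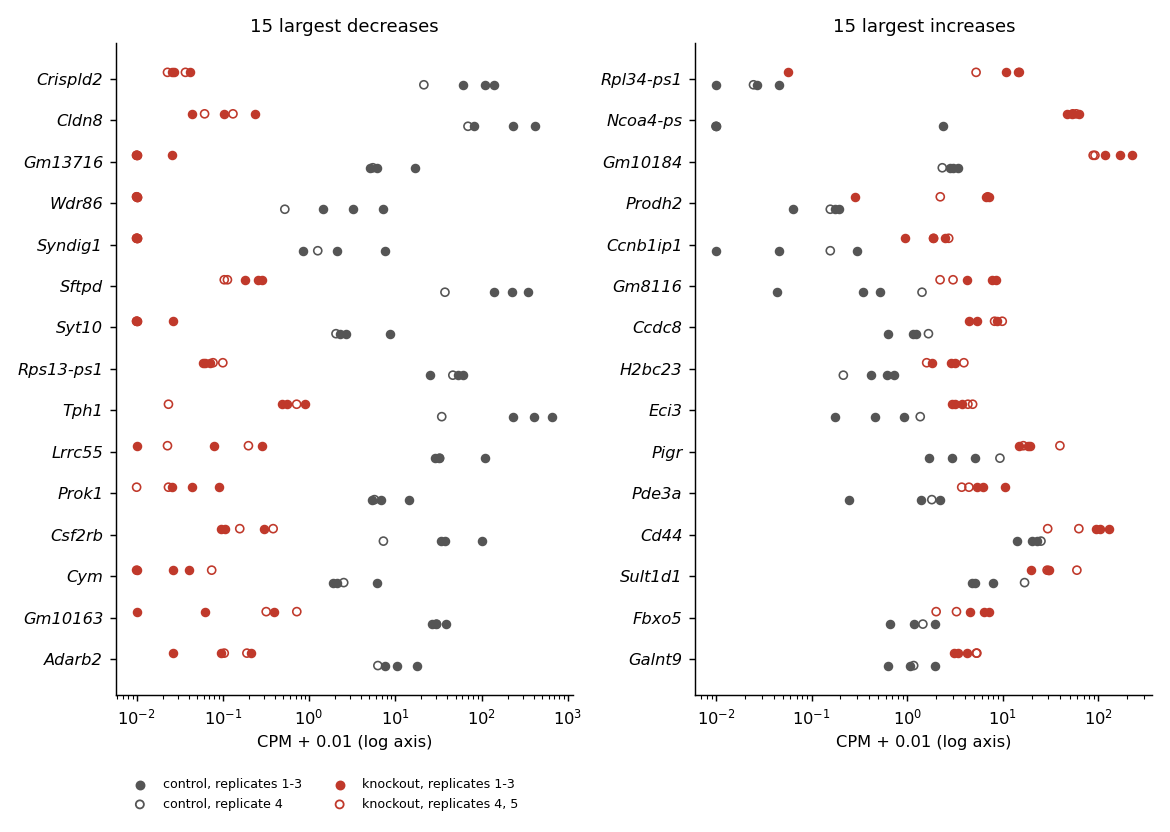
CPM + 0.01 in each library, on a log axis, for the 15 called genes with the largest decrease and the 15 with the largest increase among those with a mean of at least 1 CPM and groups that do not overlap; grey, control; red, knockout; open circles, control replicate 4 and knockout replicates 4 and 5. In the decreases, the groups are separated by a wide gap for every gene, and the open circles of Sftpd, Tph1 and Csf2rb sit at the low end of the control values.

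Promoter sequence is shown for those of the 15 genes with the largest decreases whose promoter window holds the letters TTCNNNGAA, the spaced palindrome that STAT proteins, the transcription factors of prolactin, growth hormone and cytokine receptors, are known to recognise. The window runs from 250 bases before to 50 bases after the annotated start of the gene's transcript of highest TPM (genome build GRCm39, GENCODE M39), which can lie inside the gene's outermost bounds, as it does for Prok1, Csf2rb and Syndig1; the sequences read in the direction of the gene, and the motif is in capitals.
Cldn8, chr16:88360022-88360321, minus strand: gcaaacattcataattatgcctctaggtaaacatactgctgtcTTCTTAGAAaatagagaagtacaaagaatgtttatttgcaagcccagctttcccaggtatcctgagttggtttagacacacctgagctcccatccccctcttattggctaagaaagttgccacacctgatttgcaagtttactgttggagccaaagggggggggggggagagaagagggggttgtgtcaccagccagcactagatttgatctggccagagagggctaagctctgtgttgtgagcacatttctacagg
Sftpd, chr14:40907079-40907378, minus strand: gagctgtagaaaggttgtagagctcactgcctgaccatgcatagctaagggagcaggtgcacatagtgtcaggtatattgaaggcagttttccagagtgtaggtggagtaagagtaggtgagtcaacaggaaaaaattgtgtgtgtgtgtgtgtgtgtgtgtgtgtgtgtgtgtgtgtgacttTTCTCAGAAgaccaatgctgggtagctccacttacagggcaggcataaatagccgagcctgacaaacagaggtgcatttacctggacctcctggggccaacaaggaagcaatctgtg
Prok1, chr3:107145919-107146218, minus strand: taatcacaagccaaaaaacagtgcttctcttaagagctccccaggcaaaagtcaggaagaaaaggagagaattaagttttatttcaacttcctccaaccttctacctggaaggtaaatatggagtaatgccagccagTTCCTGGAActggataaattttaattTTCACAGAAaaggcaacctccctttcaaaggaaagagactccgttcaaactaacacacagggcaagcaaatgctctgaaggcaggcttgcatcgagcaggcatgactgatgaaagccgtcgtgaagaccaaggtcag
Csf2rb, chr15:78209940-78210239, plus strand: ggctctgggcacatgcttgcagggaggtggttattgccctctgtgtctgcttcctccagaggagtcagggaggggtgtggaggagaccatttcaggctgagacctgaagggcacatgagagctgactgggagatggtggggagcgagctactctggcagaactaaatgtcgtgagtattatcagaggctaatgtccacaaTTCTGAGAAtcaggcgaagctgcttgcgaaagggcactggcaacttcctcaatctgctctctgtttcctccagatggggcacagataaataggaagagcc
Syndig1, chr2:149672051-149672350, plus strand: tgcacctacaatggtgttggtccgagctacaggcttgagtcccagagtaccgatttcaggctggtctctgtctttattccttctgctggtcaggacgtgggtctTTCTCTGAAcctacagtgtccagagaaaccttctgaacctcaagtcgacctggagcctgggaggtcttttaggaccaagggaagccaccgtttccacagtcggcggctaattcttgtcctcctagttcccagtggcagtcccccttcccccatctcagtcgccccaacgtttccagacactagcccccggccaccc
Counted from that transcript start, the motif began at -207 in Cldn8, -67 in Sftpd, -113 and -87 in Prok1, -50 in Csf2rb and -146 in Syndig1. Because it is a palindrome, a search of 1 strand covers both. Over all promoters searched, 48 of 323 lower genes (14.9%) held at least 1 such match, as did 3 of 66 higher genes (4.5%) and 1848 of 22700 tested genes (8.1%). A different palindrome, TGACGTCA, which CREB binds, was in 1.86% of the promoters of lower genes, 3.03% of higher genes and 2.14% of all. A match is a description of letters in a window and not evidence of binding.

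Ranked by TPM, Gpx3, Bex3, Enpp2 and Dynlt1b led the 10 genes of highest level that fell. Gpx3, a secreted glutathione peroxidase that reduces peroxides, was at 1506, 2943, 2422 and 566 CPM in control and at 272, 493, 150.3, 70.9 and 127 CPM in knockout. The groups did not overlap (log2 fold change -3.06 ± 0.52, adjusted p = 0.00289). Enpp2, or autotaxin, which makes lysophosphatidic acid, was at 1626, 2229, 2671 and 1424 CPM in control and at 729.7, 675, 574, 492 and 201 CPM in knockout (log2 fold change -1.90 ± 0.34, adjusted p = 0.00489). Fmo1, a flavin-containing monooxygenase, averaged 213 CPM in control and 17.7 CPM in knockout (-3.59 ± 0.48). Itm2c, Bex3, Dynlt1b, Psmb5 and Sat1 fell by smaller amounts, from -0.62 for Bex3 to -1.63 for Sat1. With 1 library left out at a time, Itm2c was called in 2 of 9 fits, Bex3 in 1 and Psmb5 in 3; the groups of Itm2c and Psmb5 overlapped. Gm27168, a noncoding gene, averaged 64.6 CPM in control and 6.0 CPM in knockout, and Prlr completes the 10.

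Genes that respond to prolactin and growth hormone held the largest share of calls of any list. Prolactin and growth hormone bind receptors that act through JAK2 and STAT5; in islets during pregnancy they raise serotonin synthesis and β cell mass. Of 20 tested genes of the list, 6 fell (30.0%) and none rose, beside 1.71% of all genes, while the median log2 fold change of the list was -0.03. Prlr, the prolactin receptor, was at 1067, 1293, 1866 and 426 CPM in control and at 483, 479, 498, 256 and 443 CPM in knockout (-1.43 ± 0.31, adjusted p = 0.0199). Its groups overlapped through control replicate 4. Cish, a STAT5 target that restrains cytokine receptors, was at 104, 166, 220.4 and 55.7 CPM in control and at 14.3, 16, 11.1, 8.21 and 17.9 CPM in knockout (-3.34 ± 0.37, adjusted p = 4.13e-05). Socs2, a second inhibitor of the same receptors, averaged 105 against 32.9 CPM, and its groups did not overlap. Tph2, which like Tph1 starts serotonin synthesis, averaged 14.6 against 1.07 CPM. Ivd, an enzyme of leucine breakdown, averaged 256 against 80.6 CPM (-1.67 ± 0.19, adjusted p = 4.21e-05). The list was made with earlier results of these data known, so its share of calls is a description. Leaving out control replicate 4 and knockout replicates 4 and 5 together, Prlr had a log2 fold change of -1.53 (adjusted p = 0.00326). Of 23 alternative analyses, with other tools, filters or sample sets, 4 did not call Prlr.

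Several cytokine receptors besides Csf2rb fell. Of 85 tested cytokine receptor and interleukin genes, 7 fell (8.24%), none rose, and the median was -0.09. Tnfrsf11b, the decoy receptor osteoprotegerin, was at 54.9, 90.3, 175 and 40.6 CPM in control and at 5.24, 12.8, 3.37, 3.43 and 1.91 CPM in knockout (-4.08 ± 0.55, adjusted p = 0.00027). Il1rap, the shared accessory chain of IL-1 family receptors, averaged 14.4 against 4.83 CPM. Ifngr2, a chain of the interferon-γ receptor, Tnfrsf1a, a receptor for TNF, and Il6st, the signal chain of the IL-6 family, had log2 fold changes of -0.79, -0.59 and -0.66. With 1 library left out at a time, Il6st was called in 3 of 9 fits and Tnfrsf1a in 5. Il34, a ligand of the CSF1 receptor, averaged only 0.695 CPM in control and 0.0182 CPM in knockout.

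The calls among immune genes were mostly interferon-induced GTPases. Of 99 tested genes for the interferon response and antigen presentation, 6 fell (6.06%), none rose, and the median was 0.02. The guanylate-binding proteins Gbp8, Gbp9, Gbp4 and Gbp11, interferon-induced GTPases of host defence, had log2 fold changes of -3.96, -4.99, -3.52 and -6.44. The annotated spans of Gbp8, Gbp9 and Gbp4 overlap, and whether their calls are separate was not tested. Gbp8 was at 17.4, 29.5, 55.3 and 23.1 CPM in control and at 1.86, 1.64, 1.43, 2.85 and 2.22 CPM in knockout (adjusted p = 7.22e-06). Tap2, which carries peptides to MHC class I, averaged 79.4 ± 12.7 CPM (SD, n = 4) against 37.8 ± 5.82 CPM (SD, n = 5). H2-Q1, a nonclassical MHC class I gene whose reads may be shared with its relatives, averaged 4.8 against 0.588 CPM and was called in 2 of 9 fits that left out 1 library. Summed macrophage and leukocyte markers overlapped between the groups, at 40.9 to 109 CPM in control and 23.7 to 127 CPM in knockout.

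Several ion channels fell to low levels. Of 66 potassium channel genes, 4 fell (6.06%) and none rose. Kcnj5, a G protein-gated inward rectifier, was at 12.7, 13.6, 21.5 and 6.53 CPM in control and at 0.308, 0.305, 0.493, 0.228 and 0.244 CPM in knockout (-5.43 ± 0.45, adjusted p = 1.23e-06). Kcnk10, a two-pore channel, and Kcna2, a voltage-gated channel, averaged 6.29 against 0.811 CPM and 11.4 against 1.74 CPM. Kcnj8, a pore subunit of ATP-sensitive channels outside the β cell, was more variable in control (0.132 to 5.06 CPM) and was called in 7 of 9 fits that left out 1 library. Of 49 HCN, chloride and volume-regulated channel genes, 5 fell (10.2%) and none rose. Among them were Cftr, an epithelial chloride channel (3.47 against 0.042 CPM), Lrrc8c, a subunit of volume-regulated anion channels (4.23 against 0.106 CPM), Slc26a3, an anion exchanger, and Ano3. Ano3 averaged 0.497 against 0.0929 CPM, and control replicate 4 was its highest control library (1.04 CPM). Without control replicate 4 and knockout replicates 4 and 5, Ano3 was not called (log2 fold change -1.4, adjusted p = 0.232). Cftr is also a ductal marker; the 9 ductal markers summed to 592 to 1435 CPM in control and 571 to 825 CPM in knockout, and their part in the Cftr result was not tested. Chrna7, a nicotinic acetylcholine receptor subunit, was the only call among 49 ligand-gated channel genes (4.70 against 0.175 CPM), and Trpm1 the only call among 52 calcium and sodium channel genes (2.29 against 0.487 CPM, with overlapping groups).

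Adhesion G protein-coupled receptors, which sense matrix and neighbouring cells, held the next largest share of calls: 4 of 19 tested genes fell (21.1%) and none rose, with a median of -0.10. Adgrg6 was at 2.52, 4.26, 6.87 and 2.17 CPM in control and at 0 to 0.134 CPM in knockout (-6.46 ± 0.68, adjusted p = 1.95e-05). Adgrf5 had the highest level of these 4, at 14.8 against 5.60 CPM on average, with overlapping groups. It was not called in 5 of 23 alternative analyses. Adgrd1 averaged 4.48 against 0.652 CPM and Adgrf1 1.38 against 0.0874 CPM. Of 127 other receptors for hormones and transmitters, 2 fell (1.57%), which is close to the share over all genes. Gpr26, an orphan receptor, was among them (6.20 against 0.096 CPM). Glp1r, the receptor for the incretin GLP-1 and the receptor of highest level in that list, was at 769 to 979.6 CPM in control and 720.4 to 1324 CPM in knockout.

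Enzymes that break down cyclic nucleotides changed in both directions. Cyclic AMP amplifies insulin secretion, and phosphodiesterases limit it. Of 63 cAMP enzyme and effector genes, 3 fell and 1 rose (6.35%). Pde2a was at 11.8, 15.1, 25 and 17.2 CPM in control and at 0.376, 0.690, 0.446, 0.322 and 0.694 CPM in knockout (-5.09 ± 0.44, adjusted p = 2.14e-06). Pde8b and Pde7b, both specific for cAMP, averaged 8.10 against 1.87 CPM and 7.05 against 2.02 CPM. Pde3a, by contrast, was at 1.39, 2.17, 0.235 and 1.80 CPM in control and at 6.21, 10.6, 5.33, 4.42 and 3.71 CPM in knockout (2.11 ± 0.48, adjusted p = 0.0259). None of these groups overlapped, and Pde3a was called in 6 of 9 fits that left out 1 library.

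The lists of secretory machinery genes held few calls in number. Among 37 genes of vesicle docking and fusion, Rph3a, a Rab3A effector at secretory granules, was the only call (2.7%, beside 1.71% of all genes). It averaged 3.31 against 0.185 CPM (-4.15 ± 0.51, adjusted p = 0.00011). The most abundant members, Snap25, Rab3a and Vamp8, had log2 fold changes of -0.29, -0.32 and -0.35 with adjusted p-values of 0.681, 0.38 and 0.309. Of 16 synaptotagmins, Syt10 fell and Syt17 rose (12.5% called). Syt17 averaged 0.712 against 1.94 CPM, while Syt13, the most abundant, was at 946 to 1602 CPM in control and 1038 to 1839.8 CPM in knockout. The call for Syt17 held in 2 of 9 fits that left out 1 library. None of 20 genes for granules and prohormone processing was called (median -0.05, smallest adjusted p = 0.0521). Their log2 fold changes ranged from -1.47 to 0.75, with 3 lower and 1 higher at an unadjusted p under 0.05. Chga and Cpe had log2 fold changes of -0.13 ± 0.28 and 0.26 ± 0.16.

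Most of the calls among cell surface and matrix genes were decreases. Of 120 integrin and matrix genes, 5 fell, Crispld2 among them, and 1 rose (5.0%). Matn2, a filament-forming matrix protein, was at 214, 178, 473 and 160 CPM in control and at 48.3, 65.5, 38.6, 33.0 and 28.7 CPM in knockout (-2.58 ± 0.36, adjusted p = 0.000448). Itgb8, an integrin that activates latent TGF-β, rose from 3.64 to 11.5 CPM (1.66 ± 0.36). Col5a2, Col22a1 and Spon1 had control means of 1.5 to 2.98 CPM and knockout means of 0.0502 to 1.01 CPM; Spon1, whose groups overlapped, was called in 4 of 9 fits that left out 1 library. Of 66 synaptic and axonal adhesion genes, Kirrel3, Lrrtm2, Cntn3 and Syndig1 fell (6.06%) and none rose. Lrrtm2, a postsynaptic organiser, averaged 22.6 against 5.85 CPM and Kirrel3, an immunoglobulin cell adhesion protein, 7.15 against 0.143 CPM. Besides Cldn8, the 24 claudin and tight junction genes held 1 call, Marveld1 (4.65 against 2.73 CPM, called in 2 of 9 fits that left out 1 library). The 89 cadherins held 1, the photoreceptor cadherin Cdhr1, which was higher in the knockout (31.3 to 72.8 CPM in control against 60.6 to 133 CPM, with overlapping groups, called in 4 of 9). Guidance genes were split, with the ephrin Efna5 and the receptor Ephb6 lower (-1.79 and -2.14) and the semaphorin Sema4c higher (1.43). The call for Sema4c was lost in 6 of 23 alternative analyses.

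Secreted ligands and growth factor receptors gave scattered calls. Gdf3, a TGF-β family ligand, was at 17.5, 18, 48.7 and 5.82 CPM in control and at 0.411, 0.353, 0.631, 0.308 and 1.07 CPM in knockout (-5.33 ± 0.66, adjusted p = 0.000119). It was among the 2 calls in the 55 genes of the TGF-β, BMP and activin list (3.64%). Gfra3, the receptor for artemin, averaged 56.8 against 3.24 CPM and was the only call among 59 receptor tyrosine kinase and ligand genes (1.69%). Fzd4, a Wnt receptor, was the only call among 34 Wnt genes (2.13 against 0.749 CPM). Ngfr, the p75 neurotrophin receptor, rested on control replicate 3 (2.22 CPM, against 0.266 to 0.308 CPM in the other controls) and was called in 3 of 9 fits that left out 1 library.

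Transporters of iron, vitamins and other metabolites were among the decreases. Of 268 solute carriers, 10 fell (3.73%) and none rose, with a median of -0.12. Slc40a1, or ferroportin, the exporter of iron, was at 125, 225, 204 and 89.3 CPM in control and at 62.7, 95.1, 45.8, 47.8 and 70.2 CPM in knockout (-1.32 ± 0.26, adjusted p = 0.01), with overlapping groups. Slc7a7, a cationic amino acid transporter subunit, averaged 22.6 against 0.946 CPM, Slc6a8, the creatine transporter, 6.93 against 1.91 CPM, and Slc23a2, a vitamin C transporter, 156 against 87.0 CPM. The others were Slc16a6 (-1.71), Slc2a13 (-1.80), Slc17a4 (-1.78), Slc23a4 (-1.66), Slc6a12 (-3.35) and the Slc26a3 already named; the calls for Slc2a13, Slc17a4, Slc23a4 and Slc6a12 were lost in most fits that left out 1 library. Of 30 oxidative stress and iron genes, 4 fell (13.3%) and none rose: Gpx3, Slc40a1, Txnrd2, a mitochondrial thioredoxin reductase (32.7 against 20.8 CPM, called in 6 of 9 fits that left out 1 library), and Ncoa4, the receptor that delivers ferritin to lysosomes (162 against 104 CPM), which has a near-identical copy that rose. Summed with that copy, Ncoa4 was no longer called (163 against 159 CPM, log2 fold change -0.03, adjusted p = 0.96), which leaves 3 calls in the list. Ern1, the stress sensor IRE1α, was the only call among 26 genes of folding in the endoplasmic reticulum (175 against 80.3 CPM, -1.12 ± 0.19, adjusted p = 0.00292).

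**Figure D3:**
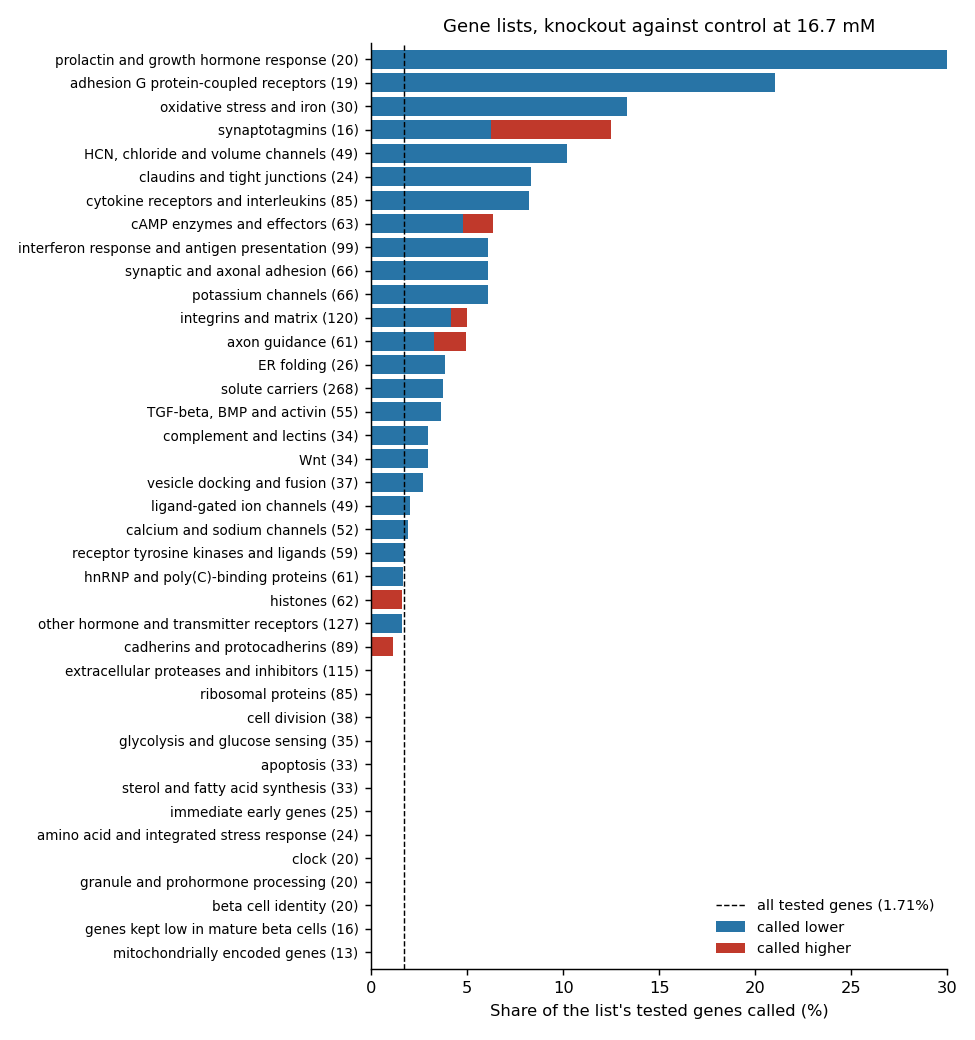
Share of the tested genes of each list that were called lower (blue) or higher (red) at 16.7 mM glucose, with the number of tested genes in parentheses and the share over all tested genes (1.71%) as a dashed line. Prolactin and growth hormone response genes reach 30.0% and adhesion G protein-coupled receptors 21.1%, all of them lower, while the lists without a bar hold no called gene.

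The genes that rose were fewer, and those of largest increase included several near-identical copies. Among the genes that are not such copies, Cd44, the hyaluronan receptor, was at 20.3, 22.8, 14.1 and 25.1 CPM in control and at 104, 129, 95.6, 62.5 and 29.5 CPM in knockout (2.03 ± 0.33, adjusted p = 0.00173). Ccdc8, a protein of the complex that holds cullin 7, was at 0.613, 1.23, 1.13 and 1.66 CPM in control and at 4.41, 5.36, 8.67, 8.20 and 9.87 CPM in knockout (2.65 ± 0.41, adjusted p = 0.001). Pigr, the receptor that carries polymeric immunoglobulin through epithelia, averaged 4.76 against 21.7 CPM. Sult1d1, a sulfotransferase, averaged 8.65 against 33.7 CPM, and Ambp, the precursor of α1-microglobulin and bikunin, 23.3 against 56.9 CPM. Prodh2, a hydroxyproline dehydrogenase, was at 0.0534 to 0.184 CPM in control; in knockout, replicate 1 was at 0.274 CPM and the other libraries at 2.21 to 7.25 CPM. Fbxo5, an inhibitor of the anaphase-promoting complex, was at 6.36, 4.53, 7.13, 3.27 and 2.00 CPM in knockout against 0.655 to 1.96 CPM in control. With 1 library left out at a time, Prodh2 was called in 6 of 9 fits and Fbxo5 in 5. The remaining genes of largest increase were Ccnb1ip1, H2bc23, Eci3 and Galnt9, with log2 fold changes of 4.09, 2.45, 2.38 and 1.83, the last of which was called in 1 of 9 such fits, and the copy Gm8116. Fgd2, Rhbdl2, Armcx2 and Gm4791 were among the 10 genes of highest level that rose, with log2 fold changes of 0.70, 0.82, 0.65 and 1.66.

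Of the 389 called genes, 21 were searched for a near-identical relative, namely the annotated pseudogenes and Gm10184. For 19 of these 21, the sequence was at least 95% identical over at least 90% of its length to a transcript of another gene. The division of reads between copy and gene is therefore uncertain for them. Other called genes were not searched. Among these was Rps18-ps6, annotated as protein-coding and named after its values were seen (28.7 against 7.5 CPM on average). Gm10184 matched Kpna2, a nuclear import receptor, at 99.9% identity over 1968 bases. It was at 2.89 CPM in control and 138 CPM in knockout, while Kpna2 was at 211 ± 11 CPM (SD, n = 4) and 135 ± 32.6 CPM (SD, n = 5). Ncoa4-ps, 99.9% identical to Ncoa4, was at 0.588 CPM in control and 55.0 CPM in knockout; the sum of copy and gene was 163 ± 12.6 CPM (SD, n = 4) in control and 159 ± 11.6 CPM (SD, n = 5) in knockout. The opposite exchange was seen for Rps13-ps1, at 46.7 CPM in control and 0.0636 CPM in knockout, whose sum with Rps13 was 94.7 ± 11.2 CPM (SD, n = 4) and 86.9 ± 10.7 CPM (SD, n = 5). Gm10163, Gm10240 and Gm13370, all 99.6% identical to Rpl21, fell, and Rpl34-ps1, 99.4% identical to Rpl34, rose from 0.0168 to 9.07 CPM. When the 19 copies were summed with the 16 genes they match, none of the 16 sums was called, and their log2 fold changes lay between -0.44 and 0.39 (smallest adjusted p = 0.125).

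**Figure D4:**
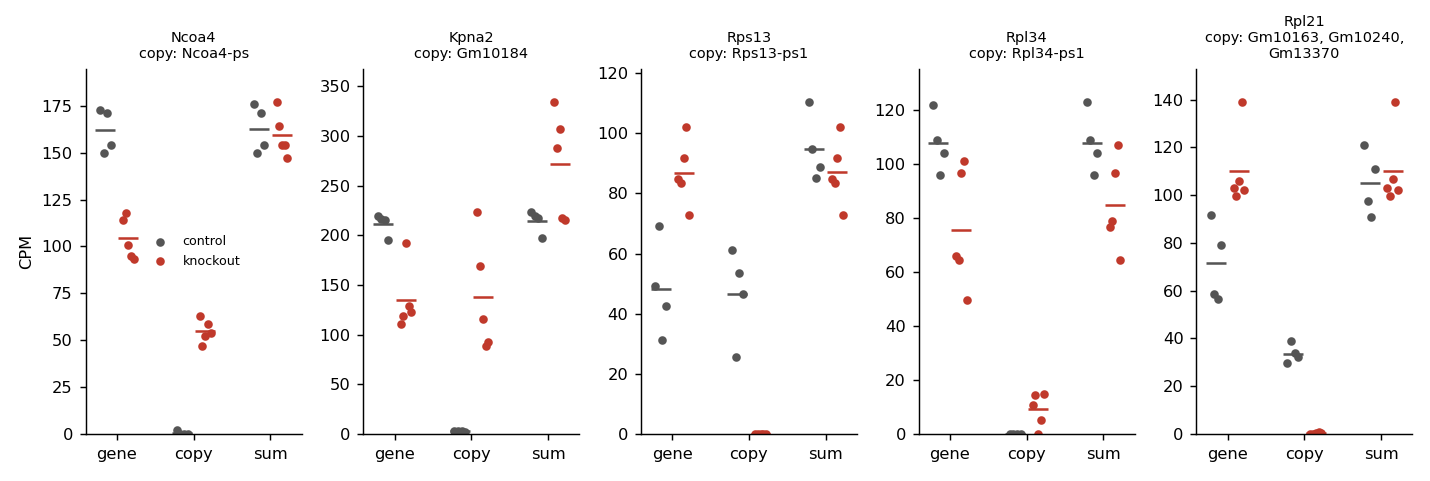
CPM of 5 genes, of their near-identical copies and of the sum of both in each control (grey) and knockout (red) library at 16.7 mM glucose; horizontal lines are group means, and the vertical axes start at 0. The copies differ between the groups while the sums overlap for all 5 genes.

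Genes that fell often lay near each other on the chromosomes. Of 322 lower genes with a position, 54 (16.8%) had another lower gene starting within 100000 bases, beside 3.39% of 22189 genes that were not called. The runs named next were joined over a longer distance between starts. Within them, Cldn8 and Kcna2 had no other lower gene starting within 100000 bases. On chromosome 2, Lrrc55, Gm13716 and Gm13715 lie within chr2:84992678-85074028 and had log2 fold changes of -8.83, -10.83 and -7.15. On chromosome 16, Cldn8 and the keratin-associated protein genes Krtap13-1 and Krtap14 (chr16:88357716-88623033) had -10.89, -9.14 and -8.71. Krtap13-1 and Krtap14 had 221 and 160 counts in control and 0 in knockout, so their fitted values depend on the prior count. Against a floor of 3 counts they were at least 107-fold and 77.5-fold lower. Gm13715 had 154 counts in control and 1 in knockout. On chromosome 3, Kcna2, Cym, A630076J17Rik and Prok1 (chr3:107008237-107147023) had -2.71, -6.98, -4.0 and -8.13, and on chromosome 5 Gbp8, Gbp9 and Gbp4 form a run (chr5:105162016-105287609). Reads of overlapping or adjoining genes cannot always be told apart. On chromosomes 1 to 19 and X, 0.66% to 2.54% of the tested genes were lower, with the highest share on chromosome 15, which carries Pcbp2. Within 5000000 bases of Pcbp2, 1 of 159 other tested genes was lower and 0 were higher.

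Genes of β cell identity gave no call. Of 20 tested, the median log2 fold change was 0.18 and the smallest adjusted p 0.13. Ins2 averaged 251895 ± 68833 CPM (SD, n = 4) in control and 266395 ± 26949 CPM (SD, n = 5) in knockout, Ins1 71872 ± 24584 and 59729 ± 8905 CPM, and Iapp, or amylin, 77207 ± 23051 and 83447 ± 27262 CPM. No gene was called among 85 ribosomal protein genes, 35 of glycolysis and glucose sensing, 33 of sterol and fatty acid synthesis, 24 of the amino acid and integrated stress response, 33 of apoptosis, 25 immediate early genes, 115 extracellular proteases and inhibitors, 20 clock genes and 13 mitochondrially encoded genes. The medians of these 9 lists lay between -0.37, for the stress response, and 0.13, for apoptosis. None was called among 16 genes kept low in mature β cells (median 0.38, smallest adjusted p = 0.0527). A call missed at this number of libraries does not show that the groups are alike: G6pc2, a glucose-6-phosphatase that opposes glucokinase, averaged 2815 ± 1044 CPM (SD, n = 4) in control and 1720.3 ± 549.7 CPM (SD, n = 5) in knockout (adjusted p = 0.439).

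The listed cell division genes had higher values in most knockout libraries without passing the test. Outside that list, Fbxo5 and the condensin genes Smc4 and Ncapd2 were called higher (log2 fold changes 1.83, 0.99 and 1.21). Smc4 and Ncapd2 were named after their values were seen. Of 38 genes, 37 had a positive log2 fold change, the median was 1.88, 30 had an unadjusted p under 0.05, and none passed after adjustment (smallest adjusted p = 0.067). Top2a, a topoisomerase of dividing cells named after its values were seen, was at 18.1, 11.4, 2.96 and 3.14 CPM in control and at 67.6, 39.5, 89, 17.7 and 0.938 CPM in knockout (adjusted p = 0.222). Knockout replicates 4 and 5, which stood apart on the first principal component, were the lowest of the group. With those libraries and control replicate 4 left out, 16 of the 38 genes were called, all of them higher. Histones had a median of 0.80 over 62 genes and a single call, H2bc23.

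At 2.8 mM glucose, where other control and knockout samples were compared, 464 genes were called (2.04%). Of the 323 genes lower at 16.7 mM, 189 were also called lower at 2.8 mM and 318 had the same sign; of the 66 higher genes, 20 were called and 62 had the same sign. The same sign was seen in 64.1% of all tested genes. Crispld2 had a log2 fold change of -9.02 at 2.8 mM, Cldn8 -10.21, Cish -3.32 and Enpp2 -3.05, all called. Kcnj8, Slc26a3, Il1rap, Sat1, Ern1 and Slc16a6 were called at 16.7 mM and not at 2.8 mM. That contrast is not a test of a difference: the interaction of genotype and glucose called none of the 389 genes, and over all tested genes it called 1 (0.00439%), with 1042 at an unadjusted p under 0.05, 34 by DESeq2, and 13 with the replicate number as a block. With that block, 5 of the 389 genes were called in the interaction: Csf2rb and Rps13-ps1, with the larger decrease at 16.7 mM, and Fmo1, Gm27168 and Gm44418, with the larger decrease at 2.8 mM. The gene called, Ins1, which was named after its values were seen, averaged 10659 ± 2692 CPM (SD, n = 3) in control and 1294 ± 329 CPM (SD, n = 5) in knockout at 2.8 mM (interaction adjusted p = 0.00902).

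**Figure D5:**
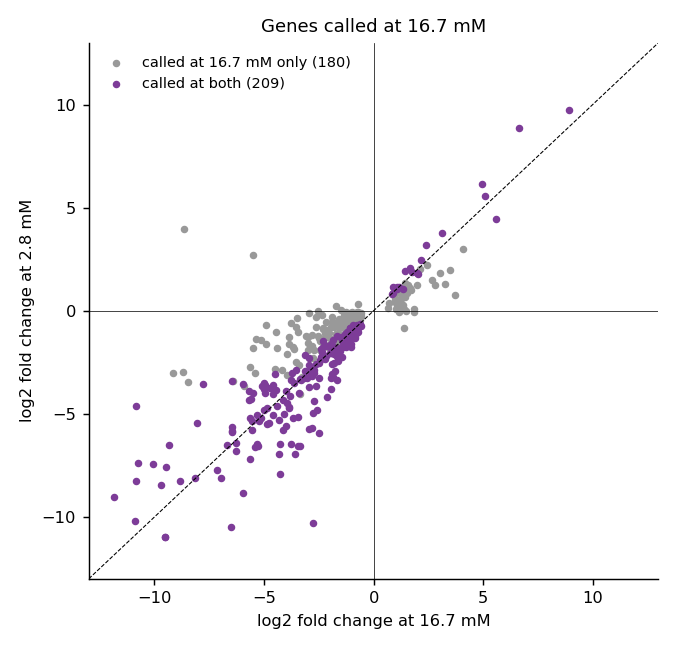
Log2 fold change of knockout against control at 2.8 mM (vertical axis) against that at 16.7 mM glucose (horizontal axis) for the 389 genes called at 16.7 mM; purple, also called at 2.8 mM in the same direction; the dashed line marks equal values. The genes were chosen for their values on the horizontal axis, and 318 of 323 lower and 62 of 66 higher genes keep their sign at 2.8 mM.

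Without control replicate 4 and knockout replicates 4 and 5, 587 genes were called, 350 lower and 237 higher, and 312 of them were among the 389. Among the replicates numbered 4 and 5 alone, 320 of the 323 lower genes were below and all 66 higher genes above the control library, with median differences of -1.58 and 0.99, beside -2.29 and 1.59 among replicates 1 to 3. These signs are no independent evidence, since the same libraries entered the calls.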

How the data were processed

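Bulk RNA-seq of FACS-purified β cells was quantified by the authors with kallisto against a GRCm39 mouse transcriptome, and the deposited tables hold, for each of 142376 transcripts, estimated counts, TPM, and full and effective lengths; replicates were not pooled. For each of 55357 genes the estimated counts of its transcripts were added, rounded, and normalised with TMM factors; CPM uses these library sizes. Deposited TPM were summed per gene for levels between genes and for alternatives on log2(TPM + 1) and log2(TPM + 0.1). Effective lengths, as deposited, entered the length-scaled alternative.

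All 17 samples in 4 groups were fitted with edgeR 4.0.16 (glmQLFit, glmQLFTest; R 4.3.3) after filterByExpr, without the study's batch factor, whose levels the labels do not give. A gene was called when its fold change exceeded 1.5 at a Benjamini-Hochberg adjusted p below 0.05. Alternatives used DESeq2 1.42.0, limma 3.58.1, other scalings, filters and sample sets. Scripts were tested on simulated data. Depth was 65070242 to 81769111 estimated counts in the 9 samples at 16.7 mM; intervals on counts cover counting error only.

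Named genes were Pcbp2, the 15 called genes of largest change in each direction with groups apart and a mean of at least 1 CPM, the 10 called genes of highest TPM in each direction, every called member of the gene lists (a few are not reported here), and the 3 members of highest TPM in lists with few calls; other genes are said to be named after their values were seen. Beyond that rule, near-identical copies and the genes they match, and genes next to a named gene on the chromosome, were also chosen after their values were seen. The samples compared and the gene lists were chosen with earlier results of these data known. Copies were matched to GENCODE M39 transcripts with blastn, and promoters were read from GRCm39 at the start of each gene's transcript of highest TPM.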

Additional observations from a re-analysis of the deposited data

Results flagged for a closer look

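Within each group of named genes at 16.7 mM, 228 sets of 4 or 5 libraries were examined for a library far from the others on the log2 scale, and 21 were found; about 1 in 20 sets is marked by chance. Knockout replicate 4 was the distant library 6 times. It was low for Prlr (256 CPM, others 443 to 498) and Tph1 (0.0134 CPM, others 0.477 to 0.883), and high for Pigr (39.6 CPM, others 14.9 to 19.1), Marveld1 (3.68 CPM, others 2.43 to 2.57), Rhbdl2 (26.1 CPM, others 21.7 to 22.8) and Gbp11 (0.415 CPM, others at most 0.0128). Knockout replicate 5 was low for Bex3 (232 CPM, others 290.4 to 310.1), Slc16a6 (4.88 CPM, others 12.1 to 17) and Chrna7 (0.0128 CPM, others 0.171 to 0.281). Knockout replicate 3 was low for Rpl34-ps1 (0.0462 CPM, others 5.25 to 14.9) and Syt17 (1.20 CPM, others 2.04 to 2.31), and held the single count of Gm13716 (0.0154 CPM); knockout replicate 2 held that of Syt10 (0.0161 CPM).

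In control libraries, replicate 3 was high for Lrrc55 (109 CPM, others 28.7 to 32.6), Gm13716 (17.1 CPM, others 5.09 to 6.18) and Ngfr (2.22 CPM, others 0.266 to 0.308), and low for Ambp (14.5 CPM, others 25.1 to 27.9). Replicate 4 was low for Itm2c (329 CPM, others 727 to 748). Replicate 1 was high for Fgd2 (25.9 CPM, others 19.4 to 19.7) and the only control library with Ncoa4-ps (2.35 CPM), and replicate 2 was low for Fzd4 (1.57 CPM, others 2.27 to 2.35).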

How the results depend on the processing

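The 389 calls at 16.7 mM became 726 with the DESeq2 Wald test (505 lower), 190 with limma on log2(TPM + 1), 238 with only the 9 samples at 16.7 mM, whose spread was then estimated alone, and 587 without control replicate 4 and knockout replicates 4 and 5 (350 lower); the cause of the DESeq2 and TPM shifts was not tested. Leaving out 1 library gave 213 to 652 calls, the lowest without control replicate 3 and the highest without control replicate 4. Summing near-identical copies, an alternative chosen after seeing the data, gave 363. The other settings stayed within 1.5 times the count. At 2.8 mM, 464 became 835 with DESeq2, 283 with limma on log2(TPM + 1), and 242 to 492 with 1 library left out, the lowest without control replicate 3. The interaction called 1 gene, and 15 without a filter on low counts, 34 with DESeq2, 0 with limma on log2(TPM + 1) (1557 at an unadjusted p under 0.05), 3 with log2(TPM + 0.1), 2 with a term for replicates 1 to 3 against 4 and 5, 2 without the 3 libraries named above, and 0 to 2 with 1 library left out. Same-numbered control and knockout libraries at 16.7 mM had correlations of their deviations of 0.047 to 0.354, below 0.1 for at least 1 of 4 pairs. The numbers were therefore not taken as pairs there. Same-numbered pairs across glucose levels enter the interaction. The 3 control pairs of this kind were at 0.123 to 0.258, and the knockout pairs at 0.0664 to 0.193, some of them below 0.1. With the replicate block, 552 genes were called among the 16.7 mM samples numbered 1 to 4 (344 lower). Among the 2.8 mM samples numbered 1 to 3, 1039 were called. These fits differ from the main fit in their samples as well as in the block. The block over all 17 samples called 13 genes in the interaction.

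Of 152 named genes that were called, 67 stayed called in all alternatives in which they were fitted, and no named gene reversed its direction in a call; of 122 named genes that were not called, 107 stayed so. Estimated counts of fewer than 3 in a group limit the low genes.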

Other observations

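The following called genes stood in no list and were named after their values were seen. Apobec1, the cytidine deaminase that edits the mRNA of apolipoprotein B, averaged 91.1 ± 36.5 CPM (SD, n = 4) in control and 25.7 ± 6.68 CPM (SD, n = 5) in knockout, while A1cf, its RNA-binding partner, averaged 4.66 ± 2.36 CPM (SD, n = 4) and 15.5 ± 3.58 CPM (SD, n = 5). Neither pair of groups overlapped. Fmo4 fell (-1.96), as did Fmo1, and Fmo5 rose (1.17). All are flavin-containing monooxygenases. Of 23 alternative analyses, 6 did not call Fmo4 and 7 did not call Fmo5. Bcat1, which starts the breakdown of branched-chain amino acids in the cytosol, averaged 13.4 against 1.05 CPM, beside the fall of Ivd further down the leucine pathway. Rasgrp1, an activator of Ras, averaged 40.3 against 1.27 CPM, Nmnat2, an enzyme of NAD synthesis, 10.3 against 0.424 CPM, Klb, the co-receptor of FGF21, 17.3 against 4.67 CPM, and Akt1, a kinase downstream of insulin and growth factor receptors, 41.7 against 21.9 CPM. Dnah8, an axonemal dynein, and Neb, or nebulin, of muscle thin filaments, averaged 69.1 against 1.47 CPM and 50.7 against 2.30 CPM.

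Penk, the precursor of enkephalins, was at 3.37, 41.8, 7.68 and 0.719 CPM in control and at 0.154 to 0.530 CPM in knockout; the control libraries spanned a wide range. Npy, neuropeptide Y, averaged 25.6 against 3.7 CPM with overlapping groups and a call in 3 of 9 fits that left out 1 library, and Gad2, which makes GABA, 3.84 against 0.123 CPM. Star, which brings cholesterol into mitochondria, averaged 55.3 ± 15.2 CPM (SD, n = 4) against 11 ± 4.01 CPM (SD, n = 5). Among the higher genes, Smc4 and Ncapd2, subunits of condensin, averaged 13.6 against 27.0 CPM and 8.29 against 19.2 CPM, Ube2t, a ubiquitin-conjugating enzyme of DNA repair, 4.61 against 9.25 CPM, and Cdkn2c, an inhibitor of cyclin-dependent kinases, 6.43 against 14.2 CPM. With 1 library left out at a time, these were called in 3 or 4 of 9 fits, and the groups of Smc4, Ncapd2 and Ube2t overlapped. Cdkn2c in knockout was at 21.4, 10.4 and 23 CPM in replicates 1 to 3 and at 7.5 and 8.88 CPM in replicates 4 and 5.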
